A study of Mus musculus with 6 samples.

Results

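Antioxidant and detoxification enzymes of mouse embryonic stem cells are described here, in cells with and without HDAC1, a histone deacetylase of several corepressor complexes. The members are 103 of the 8251 genes with a single-gene probe set on the array. They were chosen by symbol alone: glutathione S-transferases, glutathione peroxidases, peroxiredoxins, thioredoxin-named genes, superoxide dismutases, aldehyde dehydrogenases, aldo-keto reductases, heme oxygenases and cytochromes P450 other than Cyp51, with Cat, Gclc, Gclm, Gsr and Nqo1. Each gene was read from its brightest probe set, judged by the mean of the 6 arrays.

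Total RNA of untreated wild-type cells (3 arrays) and of HDAC1 knockout cells (3 arrays) was measured on Affymetrix MG U74Av2 arrays. The embryos behind both genotypes came from the same litter. The labels number the arrays as biological replicates without stating separate cultures or lines. The p-values therefore reflect array-to-array spread alone, some of which may be technical. Culture was with LIF on gelatin or on feeder layers without it, and the labels do not say which sample had which.

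Hdac1 itself measured 2323.4, 2199.7 and 2407.8 in wild-type arrays against 118.3, 110.1 and 197.1 in knockout arrays, 15.2-fold lower without overlap (adjusted p = 2.32e-06 by limma). Signals are the deposited linear intensities, which share a common scale across arrays. A signal of 116.4 was taken as background, from the upper end (95th percentile) of 19 probe sets against yeast and bacterial RNA. A gene is at background in a genotype where its mean lies at or under this level. Its fold is then a lower bound ("at least"), and no fold is given where both genotypes are at background. Errors on signals are SDs over 3 arrays. Log2 differences are knockout minus wild type of log2(signal + 16), with the standard error from limma, and a gene is called at an adjusted p under 0.05 over all 12422 probe sets. Levels of different genes are not compared, since probe sets differ in brightness. Embryonic stem cell markers summed to signals of 53353.5 to 56708.3 in wild-type and 73177.7 to 75344.3 in knockout arrays, with 8 of 14 called higher and 0 of 14 at background in both genotypes. Feeder fibroblast markers had sums of 22021.5 to 22391.3 and 16486.6 to 16800.9, with 6 of 25 called lower and 0 higher. Endoderm markers had sums of 2503.8 to 3225.3 and 3573.3 to 3989.4, with 1 of 14 called higher (Lama1, the source of most of the rise). Of all genes, 2.7% were called higher and 1.88% lower. The 3' to 5' signal ratio of beta-actin was 1.15 to 1.21 in wild-type and 1.04 to 1.09 in knockout arrays, while that of Gapdh overlapped (0.80 to 0.81 and 0.77 to 0.80). The part of these shifts in the results was not tested, and in bulk RNA fewer cells of a type and less RNA per cell cannot be told apart.

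Cells clear superoxide with superoxide dismutases, and the resulting peroxide with catalase, glutathione peroxidases and peroxiredoxins. The peroxidases draw on glutathione and most peroxiredoxins on thioredoxin, which glutathione reductase and the thioredoxin reductases recharge with NADPH. Foreign and endogenous reactive compounds are oxidised by cytochromes P450 and aldehyde dehydrogenases, reduced by aldo-keto reductases and joined to glutathione by the transferases. The factor NRF2 (gene Nfe2l2) drives many of these genes through a short DNA element in their promoters or enhancers, the antioxidant response element. Embryonic stem cells rely heavily on glycolysis and have few, immature mitochondria. The symbols also take in genes with other tasks. Txnl4a encodes a part of the spliceosome, Txnip an inhibitor of thioredoxin, Aldh18a1 an enzyme of proline synthesis, and Cyp11a1, Cyp17a1 and Cyp21a1 enzymes of steroid hormone synthesis.

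Promoters are shown for the called members with an available sequence, which leaves out Hmox1 and Aldh3a1. As a frame of reference, 2 textbook NRF2 targets whose windows hold the element are added. Each window is the 250 bases before the annotated start, from RefSeq (GRCm38.p6), 5' to 3' on the gene's strand. Capitals mark the antioxidant response element core TGACNNNGC and the GC box GGGCGG, the binding motif of Sp1-type factors, searched on both strands, with no overlap between the 2 motifs in these sequences. The windows are Akr1a1 at chr4:116651675-116651924 (minus strand), Gsto1 at chr19:47854723-47854972 (plus), Gpx2 at chr12:76795555-76795804 (minus), Gclm at chr3:122245307-122245556 (plus) and Txnrd1 at chr10:82858956-82859205 (plus).
Akr1a1: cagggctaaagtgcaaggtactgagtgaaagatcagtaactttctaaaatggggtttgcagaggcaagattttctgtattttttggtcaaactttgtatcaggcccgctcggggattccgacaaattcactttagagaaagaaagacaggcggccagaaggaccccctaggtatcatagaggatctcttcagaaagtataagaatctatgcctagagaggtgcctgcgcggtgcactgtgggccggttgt
Gsto1: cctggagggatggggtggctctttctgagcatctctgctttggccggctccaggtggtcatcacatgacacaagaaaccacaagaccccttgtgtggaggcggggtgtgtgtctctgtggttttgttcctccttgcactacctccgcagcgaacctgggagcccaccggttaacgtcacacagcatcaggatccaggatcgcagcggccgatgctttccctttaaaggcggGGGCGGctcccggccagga
Gpx2: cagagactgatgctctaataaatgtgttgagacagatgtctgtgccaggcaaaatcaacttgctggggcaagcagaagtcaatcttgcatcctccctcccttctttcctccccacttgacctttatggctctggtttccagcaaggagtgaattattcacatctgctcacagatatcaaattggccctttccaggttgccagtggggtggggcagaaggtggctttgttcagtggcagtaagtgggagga
Gclm: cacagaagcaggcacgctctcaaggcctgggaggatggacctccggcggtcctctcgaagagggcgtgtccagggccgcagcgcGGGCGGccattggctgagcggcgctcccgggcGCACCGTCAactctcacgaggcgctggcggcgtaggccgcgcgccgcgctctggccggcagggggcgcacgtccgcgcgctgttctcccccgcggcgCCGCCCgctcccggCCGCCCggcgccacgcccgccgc
Txnrd1: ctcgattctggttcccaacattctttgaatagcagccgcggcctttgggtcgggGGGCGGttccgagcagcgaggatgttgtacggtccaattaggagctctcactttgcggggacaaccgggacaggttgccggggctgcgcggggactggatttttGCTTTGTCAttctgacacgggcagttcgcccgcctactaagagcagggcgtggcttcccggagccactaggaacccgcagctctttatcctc
The element core was found in 10.2% of all 32851 windows of this length and in 9 of the 100 windows of the 83 members with a sequence. A GC box was found in 32.7% of all windows and in 42 of the 100. Neither motif was in the windows of Akr1a1 and Gpx2, and the Gsto1 window held a GC box 19 bases before the start. Of the 3 windows of Txnrd1, only the one printed held the element, and the window of Nqo1, another textbook NRF2 target, did not. Lack of the element in a window therefore does not set a gene apart from NRF2 targets. A match describes letters and shows no binding.

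Of the 103 members, 2 were called higher (Gpx2 and Aldh3a1) and 3 lower (Hmox1, Akr1a1 and Gsto1) in knockout cells. That is 4.85% of members, beside 4.58% of all 8251 genes, of which 2.7% were higher and 1.88% lower. The median log2 difference of the members was -0.06, beside -0.04 over all genes. The 3 arrays of a genotype did not overlap with those of the other for 26 members (25.2%), beside 22.4% of all genes. Of these, 11 were higher and 15 lower, where 10.3% and 12.1% of all genes were, and 8 of the 26 were at background in both genotypes. These shares lie near the background, so the results below are about single enzymes and not about the set. With each array centred on its median, 2 members were called higher and 1 lower. With variances modelled without a trend on signal, none of the 5 was called by limma, and Cyp2b10 was. Higher calls fell to 0 without HDAC1 knockout replicate 1 or 2 and to 1 without replicate 3. Lower calls fell to 1 without wild type replicate 2 or 3 or HDAC1 knockout replicate 2 or 3, and to 2 without HDAC1 knockout replicate 1. The signals of the called members by array show where the genotypes separate.

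**Figure D1:**
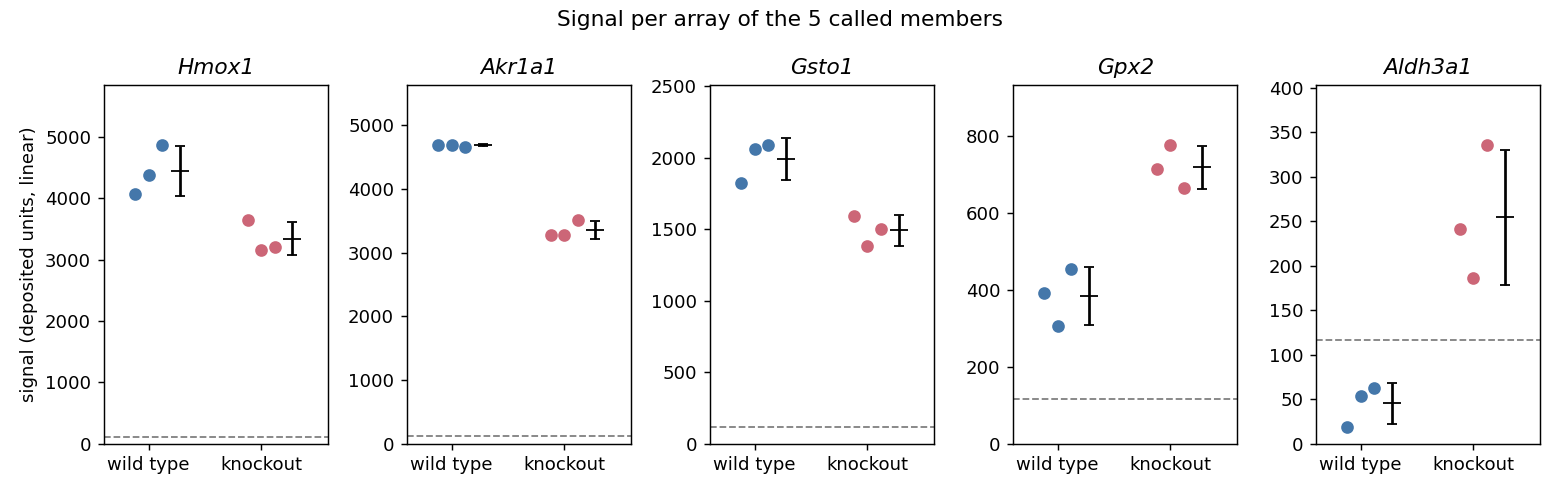
Linear signal of the 5 called members in each array (points), with the mean and SD of 3 arrays per genotype beside them (black) and the background level of 116.4 as a dashed line; each panel has its own axis from 0. The genotypes do not overlap for any of the 5, and all 3 wild-type arrays of Aldh3a1 lie under background.

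Hmox1, which encodes the inducible enzyme that breaks down heme and is a textbook target of NRF2 and of the repressor BACH1, fell 1.33-fold. Its signals were 4076.6, 4379.0 and 4875.9 in wild-type and 3650.2, 3166.2 and 3203.1 in knockout cells. Every knockout array lay under every wild-type array, and the log2 difference was -0.41 ± 0.09 (adjusted p = 0.0378 by limma). The call was lost when wild type replicate 2 or 3 or HDAC1 knockout replicate 2 or 3 was left out (adjusted p = 0.0969, 0.0911, 0.163 and 0.148). Median centring and a block for replicate number also ended it.

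The constitutive heme oxygenase gene Hmox2 lay around background, at 108.5 ± 58.2 (SD, n = 3) in wild-type and 130.8 ± 83.9 in knockout cells. Nqo1, a quinone reductase and another textbook NRF2 target, had 257.8, 257.7 and 296.6 in wild-type and 312.2, 371.8 and 308.5 in knockout cells. Its knockout arrays were all higher, against the direction of Hmox1, but it was not called (log2 difference 0.27 ± 0.20, adjusted p = 0.601). Its second probe set overlapped (log2 difference 0.11).

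Akr1a1, the aldehyde reductase that turns aldehydes into alcohols with NADPH, fell 1.39-fold. It had 4694.3, 4692.4 and 4665.9 in wild-type and 3281.0, 3275.7 and 3510.9 in knockout cells. The spread in wild-type cells was small (SD 15.9), and the log2 difference was -0.48 ± 0.07 (adjusted p = 0.00397 by limma). It was the member whose call stood with each of the 6 arrays left out (adjusted p from 0.0111 to 0.0336). Akr1a1 lies on chromosome 4, as does Hdac1, and it was the 1 called of 12 members there, beside 4.58% of all genes. The part of this location in the Akr1a1 signal was not tested.

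Among the other 6 aldo-keto reductases, Akr1b8, related to the enzymes that reduce lipid aldehydes, had 1048.0, 1141.3 and 1246.4 in wild-type and 942.5, 874.4 and 896.5 in knockout cells. These groups did not overlap, without a call (log2 difference -0.33 ± 0.10, adjusted p = 0.137). Akr7a5, an aflatoxin aldehyde reductase, had means of 959.3 ± 112.4 and 1095.4 ± 41.0, higher in each knockout array but not called (log2 difference 0.19, adjusted p = 0.475). Akr1c13 and Akr1c21 were at background in both genotypes, and Akr1c6 and Akr1e1 lay around it (means 78.2 to 118.8).

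The transferase gene Gsto1, whose omega-class product also reduces dehydroascorbate, fell 1.33-fold. Its signals were 1824.3, 2064.1 and 2091.8 in wild-type and 1594.9, 1382.2 and 1500.9 in knockout cells, without overlap. The log2 difference was -0.41 ± 0.09 (adjusted p = 0.0399 by limma), and with 1 array left out the call stood only without wild type replicate 1. Without the others in turn the adjusted p was 0.125 and 0.0958 (wild type replicates 2 and 3) and 0.0596, 0.164 and 0.122 (HDAC1 knockout replicates 1, 2 and 3). The call was also lost with median centring, with robust eBayes and with a block for replicate number.

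Summed feeder fibroblast markers were lower in the same arrays as these 3 enzymes. Tagln, Col1a1, S100a4, Fbln2, Acta2 and Timp3 were called lower, the collagen gene Col1a1 from 1010.5 ± 106.6 to 467.9 ± 17.5 (adjusted p = 0.000745 by limma). Of the 25 measured markers, 22 had a negative log2 difference, and 5 were at background in both genotypes. The median over the 25 was -0.40. The 3 positive ones were Sparc, Fn1 and Col1a2. Sparc was higher without overlap but not called (log2 difference 0.46, adjusted p = 0.21 by limma). Fn1 and Col1a2 overlapped, at 0.05 and 0.04. Their part in the lower signals of Hmox1, Akr1a1 and Gsto1 was not tested.

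No other glutathione S-transferase of the 15 measured was called. Gstt2, a theta-class transferase, had 283.7, 234.6 and 273.5 in wild-type and 111.0, 161.7 and 88.3 in knockout cells. The genotypes lay far apart, but 2 of 3 knockout arrays were at background, and the difference missed the threshold (log2 difference -1.07 ± 0.31, adjusted p = 0.108). Gstp1, the pi-class enzyme, went the other way, with 4419.9, 3871.5 and 4120.7 in wild-type and 4737.9, 4580.4 and 5197.5 in knockout cells. These did not overlap either (log2 difference 0.23 ± 0.08, adjusted p = 0.223). The 95% interval of 0.04 to 0.41, not adjusted for the number of genes, leaves out larger changes.

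In the mu class, Gstm5 averaged 1532.0 ± 293.5 in the wild type and 1163.3 ± 33.2 in the knockout without overlap (log2 difference -0.38, adjusted p = 0.181). Its other probe sets were not called, with log2 differences of -0.23 and -0.68 for 2 of them and background in both genotypes for the third. Gstm1, Gstm2 and Gstm3 overlapped, with log2 differences of -0.09, -0.17 and 0.10. These genes are close relatives, and the probe sets used for Gstm1, Gstm3 and Gstm5 carry Affymetrix's suffix for probes shared within a sequence family, so their signals cannot be assigned to 1 gene with certainty.

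In the alpha class, Gsta3 had background signals of 90.1, 9.5 and 40.4 in wild-type cells against 144.6, 114.4 and 163.7 in the knockout, at least 1.17-fold higher (adjusted p = 0.198). Gsta4, which acts on lipid peroxidation products, overlapped between the genotypes (log2 difference -0.21 ± 0.13, adjusted p = 0.507). Gsta2, Gstk1 and Gstz1 also overlapped, and Gsta1, Gstm6 and Gstt1 were at background in both.

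**Figure D2:**
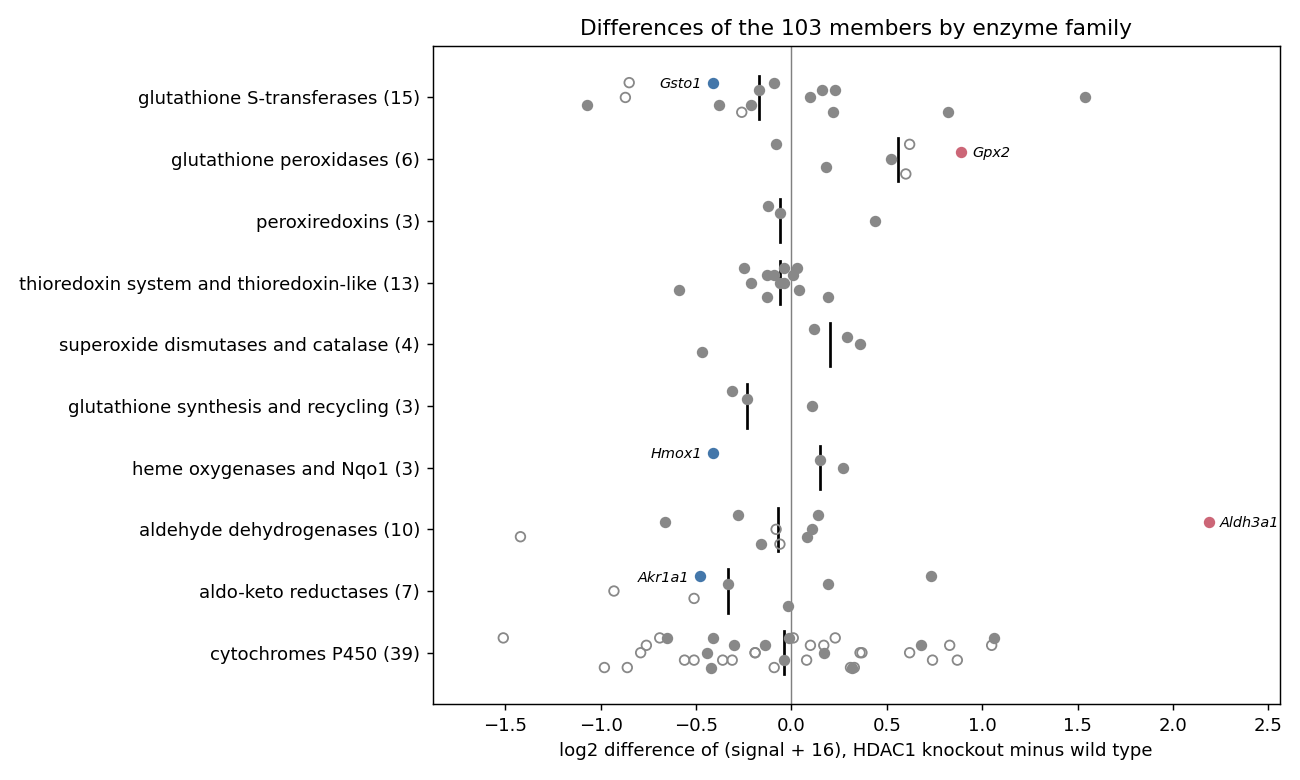
Log2 difference of signal + 16, HDAC1 knockout minus wild type, of each of the 103 members by enzyme family, with the number of members in brackets and the family's median as a black bar. Red points were called higher and blue points lower, grey points were not called, and open circles were at background in both genotypes; called members stand at 2.19 (Aldh3a1), 0.89 (Gpx2), -0.41 (Hmox1 and Gsto1) and -0.48 (Akr1a1).

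Gpx2, a glutathione peroxidase best known from the lining of the gut, rose 1.86-fold. Its signals were 390.4, 304.3 and 453.7 in wild-type and 712.4, 776.4 and 664.2 in knockout cells, so that the lowest knockout array lay well above the highest wild-type array. The log2 difference was 0.89 ± 0.17 (adjusted p = 0.0145 by limma). Leaving out HDAC1 knockout replicate 1 or 2 ended the call (adjusted p = 0.0608 and 0.0875), with log2 differences of 0.90 and 0.84.

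Gpx3, the secreted plasma enzyme, had 639.4, 636.5 and 705.4 in wild-type and 783.3, 886.8 and 1238.3 in knockout cells. These did not overlap, with HDAC1 knockout replicate 3 farthest out, and the gene was not called (log2 difference 0.52 ± 0.16, adjusted p = 0.134). Without that array the log2 difference was 0.33. Gpx4, which reduces lipid peroxides in membranes and guards against ferroptosis, had 1803.5, 1772.0 and 1611.8 in wild-type and 1853.2, 1982.4 and 2060.2 in knockout cells. The gap between the groups was narrow (log2 difference 0.18 ± 0.09, adjusted p = 0.36). Gpx1, the widely expressed cytosolic enzyme, overlapped (log2 difference -0.08, 95% interval -0.44 to 0.28), while Gpx5 and Gpx7 were at background. Over the 6 measured peroxidases, 1 was called (16.7%, beside 4.58% of all genes), 5 had a positive log2 difference and the median was 0.56. Of those 5, Gpx5 (0.60) and Gpx7 (0.62) were at background in both genotypes, and both values lie above the median. Of all genes, 45.3% had a positive difference.

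Summed endoderm markers were also higher in knockout arrays (mean 3804.37 against 2886.97), although 8 of the 14 had a negative log2 difference. Most of the rise in the sum came from Lama1, a laminin chain of basement membranes. Lama1 went from 496.3 ± 92.7 to 1183.6 ± 86.6 (adjusted p = 0.000747 by limma). It was the 1 called of 14 (7.14%, beside 4.58% of all genes). Sox17, an early endoderm factor, read 42.8, 37.9 and 232.5 in wild-type arrays against 255.4, 249.5 and 304.1 in knockout arrays, at least 1.74-fold higher without overlap but not called (adjusted p = 0.17). Gata4, Gata6 and Dab2 were above background and overlapped, with log2 differences of 0.69, 0.49 and 0.17, as did Sox7 and Lamb1 at -0.32 and -0.07. The other 7 markers (Foxa2, Hnf4a, Afp, Ttr, Apoa1, Apob and Alb) were at background in both genotypes. Whether endoderm cells had a part in the peroxidase signals was not tested.

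Of the aldehyde dehydrogenases, Aldh3a1, which clears aromatic and lipid aldehydes and is abundant in the cornea, was at background in wild-type cells at 19.3, 54.1 and 62.2. In knockout cells it had 241.1, 186.6 and 336.2, at least 1.99-fold higher, with an adjusted p of 0.0231 by limma. The gene's second probe set stayed at background in both genotypes (37.7 ± 7.5 and 37.1 ± 6.2). The call was lost without wild type replicate 1 (adjusted p = 0.0535) and without HDAC1 knockout replicate 1, 2 or 3 (adjusted p = 0.0843, 0.0627 and 0.126).

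Aldh2, the mitochondrial enzyme that oxidises acetaldehyde, depended on the probe set. The brightest had 1261.9, 1203.7 and 1140.0 in wild-type and 1078.8, 907.1 and 974.1 in knockout cells, which did not overlap (log2 difference -0.28 ± 0.10), but with an adjusted p of 0.214 it was not called. Another probe set read 1190.6, 1432.9 and 1210.5 against 873.2, 830.4 and 841.2 and was called lower (log2 difference -0.58 ± 0.11, adjusted p = 0.0131 by limma), beside 3.88% of all probe sets called in either direction. The brightest carries the suffix for probes shared between transcripts, and a further family probe set overlapped (log2 difference -0.30). All 3 were negative. Of the 24 members with several probe sets, Aldh2 was the 1 with a call on a probe set other than the brightest.

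The retinaldehyde dehydrogenases make retinoic acid, a signal that drives stem cells to differentiate. Aldh1a2, Aldh1a3 and the related Aldh1a7 were at background in both genotypes and Aldh1a1 in knockout cells (121.9 ± 30.0 and 73.4 ± 32.1). Cyp26a1, which breaks retinoic acid down, was at background as well. Aldh7a1, which acts in lysine breakdown, Aldh3a2, which oxidises fatty aldehydes, Aldh9a1 and Aldh18a1 overlapped, with log2 differences of 0.08, 0.11, -0.16 and 0.14.

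**Figure D3:**
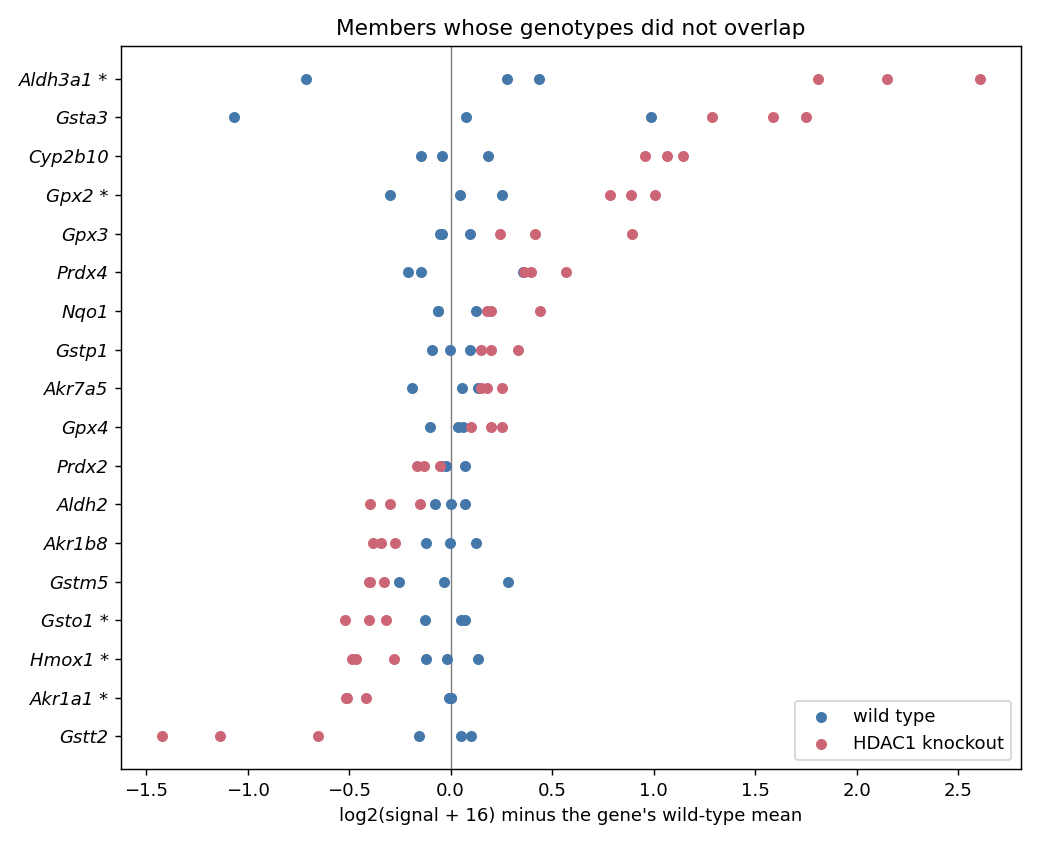
Log2(signal + 16) of each array minus the gene's wild-type mean, for the 18 members whose genotypes did not overlap and that were above background in at least 1 genotype; blue points are wild-type and red points HDAC1 knockout arrays, and an asterisk marks the 5 called members. The 13 others have gaps between the genotypes that range from narrow (Akr7a5, Gpx4 and Prdx2) to wide (Gstt2 and Cyp2b10).

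Of the 3 peroxiredoxins measured by single-gene probe sets, none was called by limma. Beside 17.1% of all genes, 1 of the 3 had an unadjusted p under 0.05. That was Prdx4, the peroxidase of the endoplasmic reticulum and the 1 X-linked member, with 1188.0, 835.6 and 797.0 in wild-type and 1193.7, 1224.6 and 1381.3 in knockout cells. Wild type replicate 1 lay just under the lowest knockout array (log2 difference 0.44 ± 0.15, adjusted p = 0.17), and without it the gene was called (log2 difference 0.62, adjusted p = 0.0265). The 259 X-linked genes had a median log2 difference of 0.23, beside -0.04 for autosomal genes. The part of X linkage in the Prdx4 signal was not tested.

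Cytosolic Prdx2 had means of 7286.1 ± 329.1 and 6720.9 ± 269.8 (log2 difference -0.12, 95% interval -0.28 to 0.05), and mitochondrial Prdx3 overlapped (log2 difference -0.06). The 2 probe sets for Prdx1 are annotated to Gm21399 as well and so are not counted among the members. One had means of 17233.5 ± 429.7 and 16326.5 ± 1194.4 (log2 difference -0.08). The other had 18490.9, 17931.1 and 16207.1 in wild-type and 13222.5, 15311.5 and 14303.7 in knockout cells, again with no overlap and no call (log2 difference -0.30, adjusted p = 0.121).

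None of the 13 thioredoxin-named members was called by limma, with 1 (Txnrd1) at an unadjusted p under 0.05, beside 17.1% of all genes. In each of the 13 the genotypes overlapped, where 22.4% of all genes did not overlap. Txn1, cytosolic thioredoxin, had 9508.8, 9785.7 and 8778.9 in wild-type and 10003.9, 9322.5 and 9363.6 in knockout cells. Its log2 difference was 0.03 with a 95% interval of -0.14 to 0.21. Mitochondrial Txn2 had an interval of -0.38 to 0.12. Txnrd1, the cytosolic reductase that recharges thioredoxin and a textbook NRF2 target, had 3048.1, 2766.9 and 2303.5 against 2382.9, 2076.2 and 2323.4. Wild type replicate 3 lay among the knockout arrays (log2 difference -0.25 ± 0.11, adjusted p = 0.31).

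Txnip gave 2 readings. Its brightest probe set overlapped, at 980.5 ± 39.3 and 940.3 ± 73.7 (log2 difference -0.06, adjusted p = 0.865). The second had 333.2, 328.8 and 438.7 in wild-type and 152.0, 304.3 and 220.8 in knockout cells without overlap or a call (log2 difference -0.70, adjusted p = 0.242). The splicing protein gene Txnl4a had a log2 difference of -0.13 (adjusted p = 0.663). The remaining thioredoxin-named members, Txndc12, Txndc5, Txndc9, Txndc17, Txnl1, Txndc16, Txnrd2 and Txnrd3, had log2 differences from -0.59 (Txndc16) to 0.19 (Txndc17). Txndc16 and Txnrd2 were at background in knockout cells.

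None of the 3 superoxide dismutases was called by limma, nor was catalase. Sod1 alone of these 4 had an unadjusted p under 0.05 (25%, beside 17.1% of all genes). Sod1, the cytosolic enzyme, had 5563.2, 6611.9 and 5624.6 in wild-type and 8623.2, 6863.8 and 6337.7 in knockout cells. HDAC1 knockout replicate 1 stood apart at the top, and the groups overlapped (log2 difference 0.29 ± 0.12, adjusted p = 0.28). Mitochondrial Sod2 had means of 561.0 ± 105.1 and 721.8 ± 102.9 (log2 difference 0.36, adjusted p = 0.351), and secreted Sod3 381.5 ± 52.6 and 274.4 ± 66.9 (log2 difference -0.47, adjusted p = 0.365). Cat, the peroxisomal peroxide-splitting enzyme, had a log2 difference of 0.12, and -0.08 on its second probe set.

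Of the 3 genes of glutathione synthesis and recycling, 0 were called by limma and 0 had an unadjusted p under 0.05. Gclc, the catalytic subunit of the rate-limiting ligase, had 609.6, 496.8 and 480.6 in wild-type and 529.5, 398.7 and 354.3 in knockout cells. Gclm, its modifier subunit, had 1101.7, 879.2 and 860.0 against 831.0, 710.1 and 871.9. Both overlapped, with log2 differences of -0.31 ± 0.18 and -0.23 ± 0.13 (adjusted p = 0.491 and 0.48). Gsr, the reductase that recycles glutathione, had a log2 difference of 0.11 with a 95% interval of -0.13 to 0.35.

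None of the 39 cytochromes P450 was called, and 27 of them were at background in both genotypes, so no fold is given for these. Among all members 37 (35.9%) were at background in both genotypes, beside 27.7% of all genes. By limma 3 of the 39 had an unadjusted p under 0.05, beside 17.1% of all genes. Of these, Cyp4v3 and Cyp3a25 were at background in both genotypes.

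The P450 gene with the lowest adjusted p was Cyp2b10, a drug-inducible liver enzyme regulated by the receptor CAR (gene Nr1i3). Its wild-type signals of 86.2, 112.3 and 93.6 were all under background, against 203.4, 233.8 and 220.4 in the knockout. The groups lay far apart, at least 1.77-fold, yet the adjusted p was 0.117, and it was 0.0439 when the variance was modelled without a trend. For Nr1i3, every knockout array lay above every wild-type array, without a call (log2 difference 0.23, adjusted p = 0.578). Cyp21a1, on a probe set shared between transcripts, had 958.8 ± 81.9 and 952.5 ± 118.6 (log2 difference -0.01, 95% interval -0.29 to 0.26). Cyp2e1, Cyp2c38, Cyp2c39, Cyp4a12b and Cyp4b1 were above background in each array and overlapped, with log2 differences from -0.41 (Cyp2c38) to 0.68 (Cyp2c39). Cyp1a1, Cyp1a2 and Cyp3a11, inducible liver enzymes, were at background in both genotypes.

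**Figure D4:**
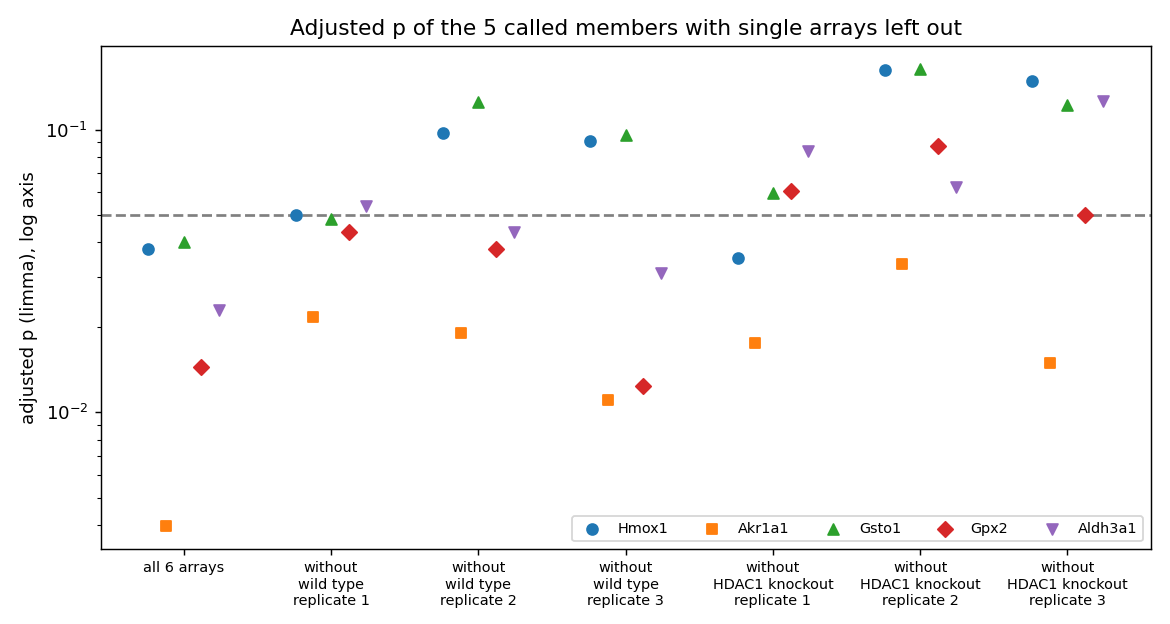
Adjusted p from limma (log axis) of the 5 called members with all 6 arrays and with each array left out; the dashed line is 0.05. Akr1a1 stays under the line in every fit, and the others cross it in 2 (Gpx2), 4 (Hmox1 and Aldh3a1) or 5 (Gsto1) of the 6.

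Around the members, 105 of 150 listed genes for redox control, NADPH supply, glutathione handling, other detoxification, iron and selenium and retinoids were measured. Of these, 5 were called higher and 2 lower (6.67%, beside 4.58% of all genes), with a median log2 difference of 0.05. None of the 17 regulators was called by limma. An unadjusted p under 0.05 was found for 3 (17.6%, beside 17.1% of all genes). Of these 3, Nfe2l3 and Ahrr were at background in both genotypes. Nfe2l2, the gene of NRF2, had 1132.5, 1203.8 and 963.6 in wild-type and 884.3, 947.2 and 871.2 in knockout cells. Every knockout array lay under every wild-type array, without a call (log2 difference -0.28 ± 0.11, adjusted p = 0.269). Bach1, its antagonist at Hmox1, overlapped (log2 difference 0.44, adjusted p = 0.423), and Keap1, which targets NRF2 for destruction, was at background in both, as was Ahrr, the repressor of the dioxin receptor. Park7, a sensor of oxidative stress, overlapped (log2 difference -0.17).

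NADPH supply held 4 of the 7 calls, out of 10 genes (40%, beside 4.58% of all genes). The list was chosen with earlier results of these data known, so this share is not independent evidence. With variances modelled without a trend on signal, none of the 4 was called by limma. Idh2, the mitochondrial NADP-dependent isocitrate dehydrogenase, had 1142.0, 1033.3 and 1132.0 in wild-type and 1555.2, 1691.5 and 1544.5 in knockout cells, 1.44-fold higher (adjusted p = 0.0097 by limma). Idh1, the cytosolic form, had 831.4, 763.5 and 734.9 against 1140.7, 1128.6 and 1223.6, 1.49-fold higher (adjusted p = 0.0108). In both the genotypes were clearly separate. The folate enzyme gene Mthfd2 rose 1.32-fold, from 3360.4 ± 110.0 to 4450.8 ± 362.4 (adjusted p = 0.0232), but was not called in any of the 6 fits with an array left out (adjusted p 0.0521 to 0.087). Its second probe set averaged 28.9 over the arrays, under background, and with both probe sets averaged the log2 difference of Mthfd2 was 0.15 in place of 0.40 (adjusted p = 0.829).

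Nnt, the mitochondrial transhydrogenase that makes NADPH from NADH, went down. It had 786.7, 753.3 and 609.8 in wild-type and 204.2, 372.6 and 456.5 in knockout cells, 2.12-fold lower (adjusted p = 0.0445 by limma). The call was lost in 5 of the 6 fits with 1 array left out (adjusted p up to 0.147). Over all 19 alternative fits by limma the Nnt call was lost in 11 (adjusted p up to 0.231). These included median centring, robust eBayes and a pseudocount of 64. The knockout arrays differed among themselves by more than the wild-type arrays. Idh1 lost its call without HDAC1 knockout replicate 3 (adjusted p = 0.0651) and Idh2 without HDAC1 knockout replicate 2 (adjusted p = 0.0644). The pentose phosphate enzyme gene Tkt overlapped (log2 difference 0.05).

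**Figure D5:**
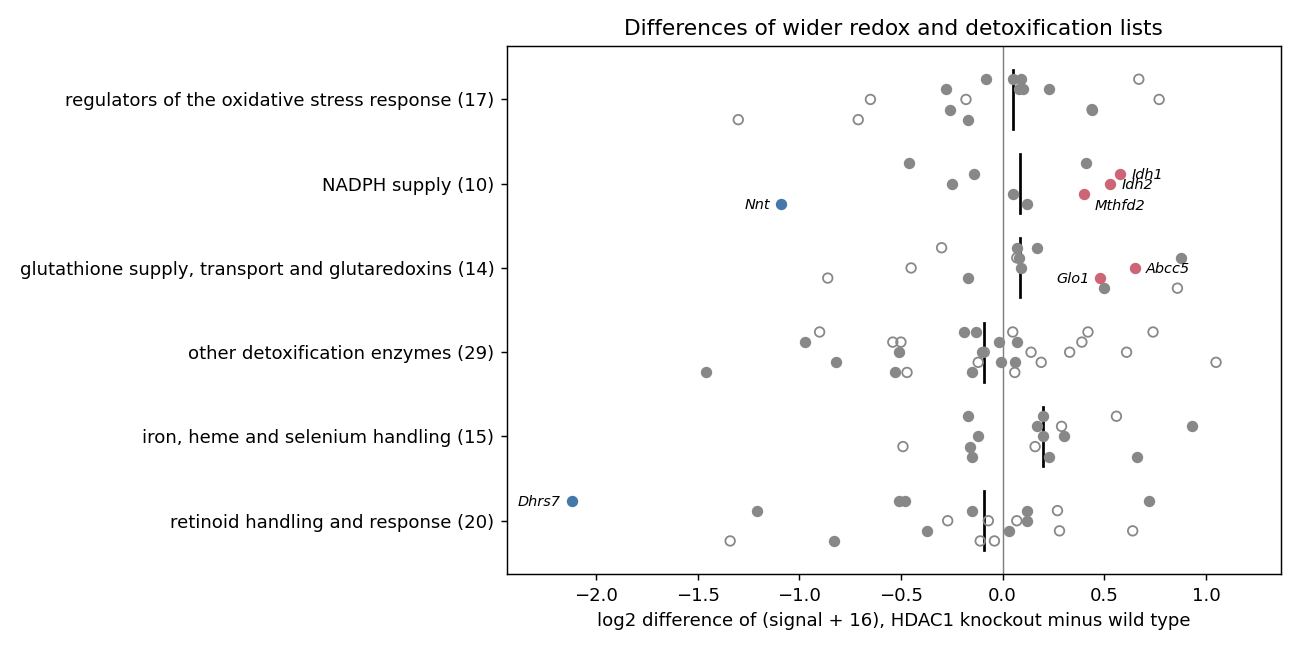
Log2 difference of signal + 16, HDAC1 knockout minus wild type, of the 105 measured genes of the 6 wider lists, with the number of genes in brackets and each list's median as a black bar. Red points were called higher, blue points lower, and open circles were at background in both genotypes. Of the 7 calls, 4 lie in the NADPH list. The lists were chosen with earlier results of these data known.

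Glyoxalase Glo1, which clears methylglyoxal with glutathione, rose 1.39-fold, with 1164.1, 1332.0 and 1114.4 in wild-type and 1655.6, 1759.1 and 1626.7 in knockout cells (adjusted p = 0.0227 by limma). Its call was lost in 5 of the 6 fits with 1 array left out. Abcc5, an exporter of cyclic nucleotides and glutathione conjugates, rose 1.57-fold, with 556.9, 599.7 and 680.9 against 1022.9, 970.4 and 916.3 (adjusted p = 0.013), and lost its call in 3. The adjusted p reached 0.11 for Glo1 and 0.0662 for Abcc5. For both genes the genotypes did not overlap. Slc3a2, the heavy chain of the cystine importer, did overlap (log2 difference -0.17).

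Of the 29 other detoxification enzymes and the 15 genes of iron, heme and selenium handling, none was called by limma. An unadjusted p under 0.05 was found for 4 and 2 (13.8% and 13.3%), beside 17.1% of all genes. Cyb5r1, a cytochrome b5 reductase, had the lowest p of the first group (log2 difference -0.51, adjusted p = 0.128), and Adh5, which clears formaldehyde bound to glutathione, overlapped (log2 difference -0.15). Sesn1, a stress-induced sestrin, had means of 372.5 ± 78.7 and 590.3 ± 52.4 without overlap (log2 difference 0.66, adjusted p = 0.0784), and Fth1, the ferritin heavy chain, overlapped (log2 difference 0.20).

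The retinoid list had 1 call of 20 (5%, beside 4.58% of all genes). That was Dhrs7, a short-chain dehydrogenase placed there by its family, which fell 4.35-fold (649.6, 598.3 and 380.6 against 123.4, 42.0 and 227.3, adjusted p = 0.0296 by limma). Its knockout arrays lay far under the wild-type arrays, 1 of them at background, and the call was lost in 4 of the 6 fits with 1 array left out (adjusted p up to 0.124). The retinoid X receptor gene Rxrb overlapped (log2 difference -0.37, adjusted p = 0.255).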

How the data were processed

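RNA of 3 wild-type and 3 HDAC1 knockout samples was hybridised, 1 colour, to 6 arrays. The values deposited by the authors are probe set intensities on a linear scale, which the submitters' processing notes credit to MAS5. Its version is not given in the sources used here, and detection calls were not used. Means after trimming 2% at each end were 499.6 to 499.9 on all arrays, so the intensities were used as deposited; such scaling hides a change of all transcripts in 1 direction. Of 12488 probe sets, 66 controls were left out, 10833 had 1 gene symbol, 396 several and 1193 none. Symbols came from the platform annotation, updated by identifier through RefSeq (10817 matched).

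Log2(signal + 16) was fitted with limma 3.58.1 in R 4.3.3 (eBayes with a trend, no covariate, all 6 arrays), with Benjamini-Hochberg adjustment over 12422 probe sets. Intervals are 95% and not adjusted. The number of arrays limits the precision. Scripts were tested on simulated data. Members, lists, the background level and the rule for named genes were chosen with earlier results of these data known. Named are called members, members above background whose genotypes did not overlap, the brightest and lowest-p members of each family, and the called, brightest and lowest-p genes of the wider lists. Some other members are named to account for their family. Alternatives were other pseudocounts, scalings, filters, variance models, weights, thresholds and probe set rules, a replicate block, no X-linked or Y-linked genes, and each array left out.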

Additional observations from a re-analysis of the deposited data

How the results depend on the processing

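The counts of calls rest on few genes and moved with the fit. Members called higher numbered 2, 1 without the dimmest 50% of probe sets, 1 with eBayes without a trend, 1 where a gene's probe sets were averaged, 0 at an adjusted p under 0.01, and 0 to 2 with 1 array left out. Members called lower numbered 3, 1 with median centring, 0 without a trend, 1 with the replicate block, 1 at an adjusted p under 0.01, and 1 to 3 with 1 array left out. Of the wider lists, 5 were called higher, 0 without a trend, 3 with the replicate block, 1 at an adjusted p under 0.01, and 1 to 4 with 1 array left out. The 2 called lower became 1 with a pseudocount of 64, median centring, robust eBayes, the replicate block or no X-linked and Y-linked genes, 0 without a trend or at an adjusted p under 0.01, and 0 to 2 with 1 array left out. The members' median of -0.06 was -0.02 with quantile normalization, 0.02 with median centring, and -0.08 to -0.02 with 1 array left out. The causes were not tested. Deviations from the genotype mean correlated at -0.0949, -0.0514 and -0.13 between same-numbered arrays, so no pairing by number was seen. With 3 arrays per genotype these values cannot settle whether same-numbered samples were handled together, which the labels do not state. None of the called members or wider-list genes changed sign in any setting run. Small array number limits the precision, and Aldh3a1, Gstt2 and Cyp2b10 lie near background in 1 genotype.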
